A study of Mus musculus with 4 samples.

Results

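The interferon-response genes described here are 9 genes chosen by symbol, Irf7, Irf9, Stat2, Ifit1, Ifit3, Oasl2, Bst2, Isg15 and Usp18, and all 9 were found, through their Entrez identifiers, among the 12700 genes of the deposited count table. The counts come from brains of C57BL/6 mice aged 9 months, either Ids-ko (Ids-/-), the model of mucopolysaccharidosis type II (Hunter syndrome), or wild type littermates (wt). The areas were Cx, the cerebral cortex, and M, the midbrain, diencephalon and hippocampus, with the striatum. RNA of 7 mice was pooled for each library, and each condition has 1 library, coded CxH and MH for Ids-ko and CxWT and MWT for wt. Each brain gave both areas, so pools with the same genotype label come, by the study's methods, from the same animals. No condition has a second pool, so the tests below compare libraries and not the conditions. They set 2 libraries against each other, apart from 1 fit over all 4 libraries, which has no second pool of animals either.

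Type I interferons bind a receptor made of Ifnar1 and Ifnar2, whose kinases Jak1 and Tyk2 activate STAT proteins, Stat2 among them. With Irf9, Stat2 is part of a transcription factor complex that binds a DNA element, the interferon-stimulated response element (ISRE), before antiviral genes. Irf7 is itself induced in this way and drives further interferon production. In the brain, microglia are a known source of such transcripts, and neurons, astrocytes and endothelial cells can also make them.

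The ISRE is shown first because it is the sequence through which the pathway acts on its targets. RefSeq promoters, from 250 bases before to 50 after a start site on GRCm38.p6, were held for 8 of the 9 genes. They were searched on both strands for the ISRE core GAAANNGAAA. It was present for 5 of the 8 genes, Ifit3, Ifit1, Bst2, Isg15 and Stat2, and for 3.46% of the 10086 genes of the count table that had a promoter entry. The gamma-activated site TTCNNNGAA, which reads the same on both strands, was found in Bst2 alone, against 8.17% of the same genes. A match is a description of letters and not a measured binding site. The 250 bases before the start site are printed for 4 of the genes with an ISRE core, in order of the size of their log2 ratio between CxH and CxWT. Each run matched the NCBI37/mm9 genome exactly, at 1 place on its chromosome, and coordinates are of that build. Capitals mark the ISRE cores, and cores that overlap run together.

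Ifit3, chr19:34657769-34658018, plus strand: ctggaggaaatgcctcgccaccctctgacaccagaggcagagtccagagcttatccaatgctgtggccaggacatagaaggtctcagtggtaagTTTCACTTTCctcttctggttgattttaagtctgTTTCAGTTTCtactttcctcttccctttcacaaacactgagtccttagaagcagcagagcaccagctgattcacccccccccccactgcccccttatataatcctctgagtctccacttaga
Ifit1, chr19:34715129-34715378, plus strand: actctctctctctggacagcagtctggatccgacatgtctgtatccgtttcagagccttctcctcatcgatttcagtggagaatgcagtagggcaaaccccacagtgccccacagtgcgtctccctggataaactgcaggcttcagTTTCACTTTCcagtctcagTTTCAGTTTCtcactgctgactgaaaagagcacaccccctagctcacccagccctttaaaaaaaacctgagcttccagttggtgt
Bst2, chr8:74061372-74061621, minus strand: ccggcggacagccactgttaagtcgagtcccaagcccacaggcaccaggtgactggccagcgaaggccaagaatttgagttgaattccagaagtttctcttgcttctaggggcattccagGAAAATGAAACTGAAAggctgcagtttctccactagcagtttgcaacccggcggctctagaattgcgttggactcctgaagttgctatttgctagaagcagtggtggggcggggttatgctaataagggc
Isg15, chr4:155574928-155575177, minus strand: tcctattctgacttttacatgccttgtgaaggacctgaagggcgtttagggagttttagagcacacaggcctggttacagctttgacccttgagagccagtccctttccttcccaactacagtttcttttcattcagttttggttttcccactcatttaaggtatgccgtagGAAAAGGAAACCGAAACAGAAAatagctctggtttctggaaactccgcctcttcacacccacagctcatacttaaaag

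Ifit3 and Ifit1, both on chromosome 19, carried the letters TTTCACTTTC followed by TTTCAGTTTC. Read as GAAANNGAAA, these cores lie on the strand opposite to the gene. In Isg15 there were 3 overlapping cores, and in Bst2 there were 2. The core was not found in the windows of Irf7, Oasl2 and Irf9.

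Counts were taken over whole genes, whose positions on NCBI37/mm9 in GENCODE vM1 follow. The signalling genes are Stat2 (Entrez 20847) at chr10:127707629-127729905 on the plus strand, Irf9 (Entrez 16391) at chr14:56222408-56228867 on the plus strand and Irf7 (Entrez 54123) at chr7:148448605-148452380 on the minus strand. The effectors are Ifit1 (Entrez 15957) at chr19:34715361-34724499 on the plus strand, Ifit3 (Entrez 15959) at chr19:34658021-34663221 on the plus strand, Oasl2 (Entrez 23962) at chr5:115346943-115362243 on the plus strand and Bst2 (Entrez 69550) at chr8:74058163-74061336 on the minus strand. The genes of the Isg15 system are Isg15 (Entrez 100038882) at chr4:155573533-155574927 on the minus strand and Usp18 (Entrez 24110) at chr6:121195924-121220934 on the plus strand.

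Before the values are given, the libraries have to be set against their labels. Ids, the disrupted gene, had 135 RPM (reads per 1000000 aligned reads) in CxH and 354 in CxWT, with 368 in the library labelled MH and 155 in the library labelled MWT. In M, therefore, the library labelled Ids-ko held more Ids reads than the wt one. The markers of the areas did not follow the labels either. The summed level of 13 markers of cortical excitatory neurons was 2164 RPM in CxH and 2024 in MH, against 445 in CxWT and 378 in MWT, and Slc17a7 was the most abundant. A list of 15 markers of midbrain and diencephalon ran the other way, with 27.3 and 39.6 RPM in CxH and MH and 538 and 472 in CxWT and MWT, with Slc17a6 the most abundant and En1 at 0 reads in 1 library. A ratio of H over WT as labelled thus carries an area difference in its markers as well, and genotype and area cannot be told apart in it. Whether labels were exchanged between libraries was not tested, and if they were, what each ratio compares would change. Cx, M, H and WT are therefore used below as the labels of libraries and not as areas or genotypes that the values bear out. All 6 pairs of libraries are reported, and since they share libraries they are not independent of each other. Reads on genes numbered from 16380080 (MWT) to 23475080 (CxH) per library.

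A gene was called when a likelihood ratio test on the Poisson counts of 2 libraries had a p-value below 0.05 and RPM differed by at least 0.7 on the log2 scale, the thresholds of the study. Errors after ± are standard errors from counting, and intervals in brackets are 95% exact Clopper-Pearson intervals. Both cover counting error only. A floor of 3 reads stands at 0.0779 RPM in CxH and 0.104 RPM in MWT, and every member was above it in every library. Where 4 values follow a gene's name without library codes, they stand for CxH, CxWT, MH, MWT in that order.

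By their own pattern the 9 genes fell into 3 kinds. Ifit1, Ifit3, Oasl2, Usp18 and Irf7 had higher levels in CxWT and MWT than in CxH and MH. Bst2, Isg15 and Irf9 had their highest level in MWT and the next in CxH, the libraries with few Ids reads, but only for Bst2 did CxH differ from the library below it beyond counting error. Stat2 was the most even. MWT held the highest level of 7 of the 9 genes, CxWT that of Irf7 and MH that of Stat2. In bulk tissue, fewer cells of a type and less RNA per cell cannot be told apart.

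**Figure D1:**
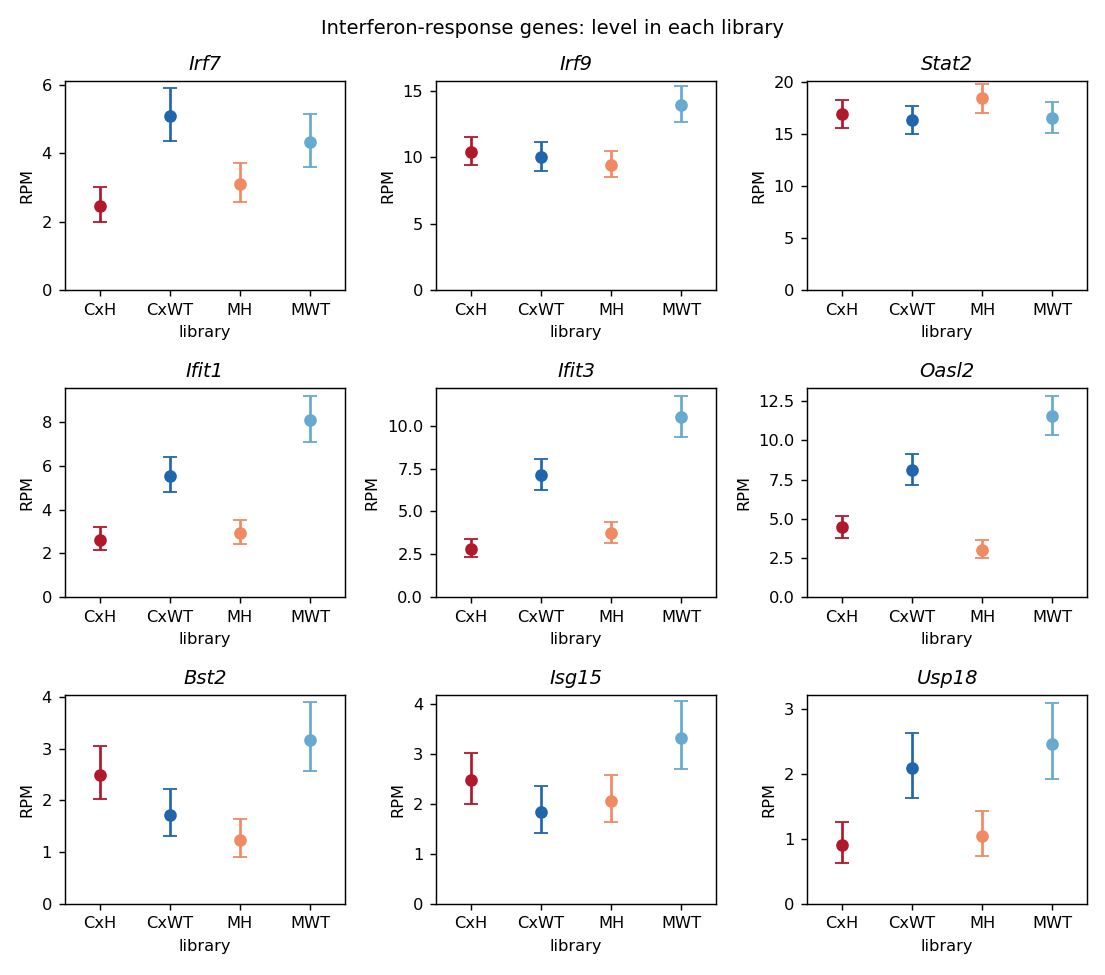
Level of each of the 9 genes in RPM (vertical axis, from 0) in the 4 libraries, 1 point per library with its 95% exact Clopper-Pearson interval, which covers counting error only. Ifit1 and Ifit3 lie lowest in CxH and MH and highest in MWT, whereas Stat2 lies between 16.3 and 18.4 RPM throughout.

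The signalling genes are given first. Stat2, which carries the interferon signal to the nucleus, had 650, 548, 688 and 479 reads, or 16.9, 16.3, 18.4 and 16.5 RPM. Its levels overlapped within counting error from each library to the next in order, and its log2 ratio was 0.05 ± 0.08 in Cx (CxH over CxWT, interval -0.12 to 0.22), and in M it was 0.15 ± 0.09 (MH over MWT, interval -0.016 to 0.33). It was not called in any of the 6 pairs.

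Irf9, the partner that gives the complex its DNA specificity, had 401, 337, 353 and 404 reads, or 10.4, 10.02, 9.45 and 13.96 RPM. Only MWT stood above the others, and CxH, CxWT and MH did not differ beyond counting from one to the next. For Cx the log2 ratio was 0.06 ± 0.11, and for M it was -0.56 ± 0.11, short of the threshold on size. Irf9 overlaps Rnf31 on the same strand, and 2.54% of the 50-base windows of its longest coding transcript also lie in Rnf31 transcripts, so its count is uncertain to that extent.

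Irf7, the inducible factor of the interferon loop, had 95, 171, 116 and 125 reads, which is 2.47, 5.09, 3.10 and 4.32 RPM. CxWT and MWT lay above MH and CxH, while the members of each of these sets did not differ beyond counting error. The ratio reached the thresholds in Cx, at -1.04 ± 0.18 on the log2 scale (2.06-fold lower in CxH), and not in M, at -0.48 ± 0.19. The difference between these pairs was not tested. In the annotation Irf7 overlaps Phrf1 on the other strand, and whether the counting used strand is not given in the sources used here.

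Among the effectors, Ifit1 encodes a protein that binds viral RNA without the host cap modification. It had 101, 187, 110 and 235 reads, or 2.62 RPM (2.14 to 3.19), 5.56 (4.79 to 6.42), 2.94 (2.42 to 3.55) and 8.12 (7.11 to 9.23). CxH and MH were the low libraries and did not differ from each other beyond counting, and MWT stood above CxWT. Its ratio on the log2 scale was -1.08 ± 0.18 in Cx, 2.12-fold lower in CxH, and -1.46 ± 0.17 in M, 2.76-fold lower in MH. Of the 50-base windows of its transcript, 7.13% are shared with 2 annotated genes of the same family, 2010002M12Rik and Gm14446.

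Ifit3, a binding partner of other Ifit proteins, had 109, 239, 139 and 304 reads, which is 2.83 RPM (2.32 to 3.41), 7.11 (6.24 to 8.07), 3.72 (3.13 to 4.39) and 10.5 (9.35 to 11.8). Every step in the order MWT, CxWT, MH, CxH was larger than counting error. On the log2 scale the ratio was -1.33 ± 0.17 in Cx and -1.50 ± 0.15 in M. As many as 51.5% of its 50-base windows are also found in transcripts of Ifit3b (I830012O16Rik), a near-identical copy, and since reads were counted where they fell on 1 gene alone, the level of Ifit3 itself is uncertain. Ifit3b, named after its values were seen, had 368, 655, 348 and 946 reads, with ratios of -1.03 (Cx) and -1.81 (M) on the log2 scale.

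Oasl2, a relative of the oligoadenylate synthetases that sense double-stranded RNA, had 171, 273, 113 and 334 reads, or 4.44, 8.12, 3.02 and 11.5 RPM. Here MH and not CxH was lowest, and all steps in the order exceeded counting error. It had the largest ratio of the 9 genes in M, -1.93 ± 0.16 on the log2 scale, or 3.82-fold lower in MH. In Cx the ratio was -0.87 ± 0.14.

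Bst2, or tetherin, holds budding virus particles at the cell surface. With 96, 58, 46 and 92 reads it stood at 2.49 RPM (2.02 to 3.04) in CxH, 1.73 (1.31 to 2.23) in CxWT, 1.23 (0.90 to 1.64) in MH and 3.18 (2.56 to 3.90) in MWT. MWT and CxH were high and CxWT and MH low, and within neither set did the levels differ beyond counting error. The ratio was above 0 in Cx, at 0.53 ± 0.24, without reaching the threshold on size, and in M it was -1.37 ± 0.26, or 2.58-fold lower in MH. It was 1.02 ± 0.26 in CxH over MH and -0.88 ± 0.24 in CxWT over MWT.

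Isg15, a ubiquitin-like protein that is attached to other proteins, had 95, 62, 77 and 96 reads, or 2.47, 1.84, 2.06 and 3.32 RPM. MWT was above the other libraries, which did not differ from each other in order beyond counting. Its ratio was 0.42 ± 0.24 for Cx and -0.69 ± 0.22 for M, neither of them called, the latter just short of the threshold on size. In CxWT over MWT it was called, at -0.85 ± 0.24, and this call was lost once GC content and length were corrected for, at -0.63. The same correction brought the ratio for M to -0.39.

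Usp18 removes Isg15 from its targets and dampens signalling at the receptor. Its reads were few, 35, 70, 39 and 71, or 0.91 RPM (0.63 to 1.26), 2.08 (1.62 to 2.63), 1.04 (0.74 to 1.43) and 2.45 (1.92 to 3.09). The levels of CxWT and MWT did not differ beyond counting, nor did those of MH and CxH, and the sets were apart. Its log2 ratios were -1.20 ± 0.30 (Cx) and -1.23 ± 0.29 (M). In M the ratios of Isg15 and Usp18 were both below 0, and in Cx the interval of the Isg15 ratio, from -0.057 to 0.91, held 0. The difference between these genes was not tested.

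Per kilobase of the longest coding transcript, levels in CxH ran from 0.514 RPM per kb for Usp18 to 3.83 for Stat2, with Irf9 at 3.52 and Bst2 and Isg15 both at 3.26. Lengths were not reduced for stretches shared with other genes, which hold 51.5% of the 50-base windows of Ifit3, 7.13% of Ifit1 and 2.54% of Irf9. The places of these genes in the orders of CxH and MWT are therefore uncertain. In MWT the highest was Ifit3 with 6.02 RPM per kb, and the order below it was Irf9 (4.72), Isg15 (4.39), Bst2 (4.16), Stat2 (3.76), Oasl2 (3.69), Ifit1 (3.06), Irf7 (1.93) and Usp18 (1.39). The widest span between libraries was that of Oasl2, whose highest level was 3.82 times its lowest, followed by Ifit3 at 3.71 times and Ifit1 at 3.09 times. Stat2 had the narrowest, 1.13 times.

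By comparison, 5 of the 9 genes were called in Cx, all lower in CxH: Ifit3, Usp18, Ifit1, Irf7 and Oasl2. Of all genes, 11.5% were called as higher in CxWT and 9.46% as higher in CxH. The median log2 ratio of the 9 genes was -0.87, and that of all genes -0.09. In M, 5 were called as well, Oasl2, Ifit3, Ifit1, Bst2 and Usp18, all lower in MH, where 12.7% of all genes were called as higher in MWT and 12.3% as higher in MH. The median was -1.23, beside -0.07 over all genes. As the members were chosen with results of these data known, these shares are descriptions. An additive fit over the 4 libraries compared the H with the WT labels, with the labelled area as a block (edgeR quasi-likelihood test, Benjamini-Hochberg adjustment over all genes, 1 residual degree of freedom). It called Ifit3 (-1.41, adjusted p = 0.0066), Ifit1 (-1.27, adjusted p = 0.014), Oasl2 (-1.39, adjusted p = 0.018) and Usp18 (-1.21, adjusted p = 0.0497) as lower in H by edgeR, beside 9.9% of all genes lower and 8.76% higher. Irf7, at -0.76 with an adjusted p of 0.105 in edgeR, was not called. Ids itself was at -0.07 in this fit and not called, so the labels it rests on are those already set against Ids and the area markers. Libraries with the same genotype label come from the same animals. The 1 residual degree of freedom therefore does not measure variation between animals, and the p-values of the fit do not test the conditions.

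**Figure D2:**
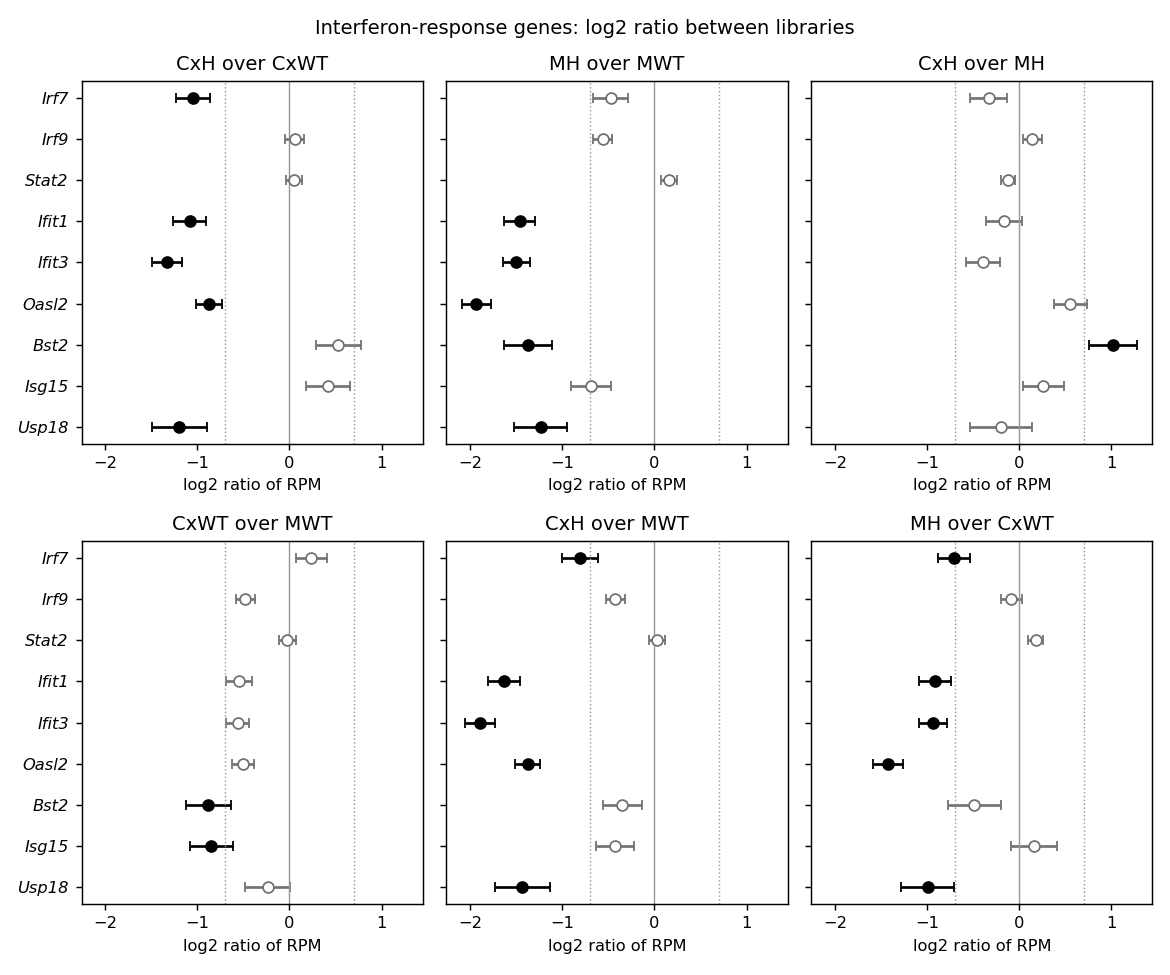
Log2 ratio of RPM (horizontal axis) of each of the 9 genes in the 6 pairs of libraries, with the standard error from counting; filled points were called and open points were not, and dotted lines mark 0.7 on either side of 0. Ifit1, Ifit3, Oasl2 and Usp18 are filled and below 0 in each of the 4 pairs that set an H library over a WT library, and Stat2 is open in all 6.

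Between libraries with the same genotype label, 1 and 2 members were called. In these pairs 0 of the 13 cortical markers were called, and of the 15 midbrain and diencephalon markers 1 was called as higher and 4 as lower in CxH than in MH, and 3 as higher in CxWT than in MWT. Ids was called in both pairs. In CxH vs. MH only Bst2 passed, higher in CxH, beside 2.43% of all genes higher in CxH and 1.06% higher in MH. Oasl2 had a log2 ratio of 0.55 ± 0.17 there and Ifit3 one of -0.39 ± 0.18, both within the threshold. The remaining members lay between -0.33 (Irf7) and 0.26 (Isg15). In CxWT vs. MWT, Bst2 and Isg15 passed, both lower in CxWT, against 2.11% of all genes higher in MWT and 5.43% higher in CxWT. Ifit1, Ifit3, Oasl2 and Irf9 had ratios of -0.55, -0.56, -0.51 and -0.48 and were not called. The members' median was -0.13 between the H libraries, where that of all genes was 0.01, and -0.51 between the WT libraries, where that of all genes was 0.04.

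Of the pairs that differ in both labels, CxH vs. MWT joins the libraries with few Ids reads. Ifit3 (-1.89 ± 0.16), Ifit1 (-1.63 ± 0.17), Usp18 (-1.43 ± 0.30), Oasl2 (-1.38 ± 0.14) and Irf7 (-0.81 ± 0.20) were called there as lower in CxH, while Bst2, at -0.35 ± 0.21, was not. Of all genes, 15.1% were higher in MWT and 15.6% higher in CxH. The libraries with many Ids reads are MH and CxWT, and between them the same 5 genes were called as lower in MH, from -0.71 ± 0.17 (Irf7) to -1.42 ± 0.16 (Oasl2), with 8.89% of all genes higher in CxWT and 6.41% higher in MH. Thus Ifit1, Ifit3, Oasl2 and Usp18 were called in all 4 pairs of an H library with a WT library, whichever way Ids ran, and Irf7 in 3 of them. Each library enters 2 of these pairs, and 5.08% of all genes were called as higher in WT in all 4, with 4.9% called as higher in H. All 15 midbrain and diencephalon markers were among the former. With TMM factors, which moved the median of all genes by 0.11 in MH vs. CxWT, the ratio of Irf7 was -0.60 there and not called. In the same pair Usp18 and Irf7 were not called by the exact test with an assumed coefficient of variation of 0.2. At a log2 threshold of 1 only Oasl2 kept its call there.

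The other genes of the pathway were taken from lists by role, which hold none of the 9 members and together named 126 genes, 80 of them in the table. Of the 9 ligands listed, among them Ifnb1, the interferon-alpha genes and Ifng, 0 were in the table, so the level of interferon itself was not analysed here. Of the 80 genes, 12 were called as higher and 3 as lower in CxH than in CxWT, and in M 6 as higher and 21 as lower in MH than in MWT. Over all genes the shares given above were 9.46% higher and 11.5% lower for Cx, and 12.3% higher and 12.7% lower for M. The median log2 ratio was 0.11 in Cx, against -0.87 for the members, and -0.40 in M.

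The receptor subunit Ifnar1 had 37.3, 32.9, 35.7 and 33.0 RPM, and its log2 ratio was 0.18 for Cx and 0.11 for M. For Ifnar2 the ratios were 0.21 and -0.41. Neither was called. Of the 5 receptor subunits, Il10rb was called in Cx, higher in CxH at 0.93, and Ifngr1, the ligand-binding chain of the interferon-gamma receptor, in M, lower in MH at -0.94. Among the kinases, Jak1 had ratios of -0.13 and -0.04, and Tyk2 had 0.35 and 0.73 ± 0.10, the latter called as higher in MH.

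Of the 5 further interferon regulatory factors, Irf8, a factor of microglia and macrophages, was called in Cx at 1.08 and Irf2 in M at 0.93, both as higher in the H library. The 10 sensors and adaptors had 2 calls in Cx, Tlr9 and Sting1, both higher in CxH, and 1 in M, Tlr7, lower in MH at -0.9999. Of the 4 genes listed under Isg15 conjugation, 0 were called in Cx and 2 in M, both higher in MH: Herc6, a ligase for Isg15, at 0.70, and Herc3, a ubiquitin ligase of the same family with no such role established, at 0.80. The 9 negative regulators had Ptpn6 and Socs3 called as higher in CxH, at 1.34 and 1.09, and Pias4 as higher in MH, at 0.71. Of all genes, 9.46% were called as higher in CxH and 12.3% as higher in MH, and with 4 to 10 genes in a role nothing is read from 1 or 2 calls.

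Of 69 further induced effectors listed, 44 were in the table. Mx1, Mx2, Oas2, Oas3, Rsad2, Ifi44 and Cxcl10 were among those that were not, so the values below do not cover them. The 44 genes split in Cx, with 6 called as higher in CxH and 3 as lower, where 9.46% and 11.5% of all genes were so called, and a median of 0.09. In M, 19 were called as lower in MH and 1, Psmb10, as higher, where 12.7% and 12.3% of all genes were so called, with a median of -0.55. The lowest of them in Cx were Gbp6, a guanylate-binding protein, at -1.25 ± 0.16, Ifit2 at -1.16 ± 0.11 and the RNA exonuclease Pnpt1 at -0.80 ± 0.12. In reads, Gbp6 had 115, 239, 128 and 329, and Ifit2 had 252, 491, 293 and 450. Both were high in the WT libraries and low in the H libraries, as Ifit1 and Ifit3 were. Of the called genes that reached 50 reads in 1 of the libraries, Gbp6 was also the lowest in M, at -1.73 ± 0.15, followed by Rtp4, a chaperone of receptors, at -1.30 ± 0.21 and Slfn2 at -1.19 ± 0.27.

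A second set of effectors had other levels. Ifitm3, which blocks virus entry, had 510, 260, 234 and 346 reads. It was called as higher in CxH than in CxWT at 0.78, as higher than in MH at 1.08 ± 0.11, and as lower in MH than in MWT at -0.93. Ifitm2, its neighbour in the family, was at 1.20 ± 0.15 in Cx and 1.06 ± 0.14 in CxH vs. MH. Ifi30, a lysosomal thiol reductase of antigen presentation, had 235, 85, 109 and 146 reads, with 1.27 ± 0.18 in Cx, 1.06 ± 0.17 in CxH over MH, and -0.996 ± 0.20 for CxWT over MWT. These genes, like Bst2, were highest in CxH and MWT. In CxWT vs. MWT, Parp9 at -1.05 ± 0.18 and Ptpn6 at -0.98 ± 0.17 were the others of the lowest among such genes, and Psmb10 at 1.24 ± 0.08 was the highest. Over all 80 genes, 12 were called as higher in CxH than in MH and 0 as lower, and in CxWT vs. MWT 1 was called as higher in CxWT and 12 as lower. The shares of all genes were 2.43% and 1.06% in the former pair and 5.43% and 2.11% in the latter.

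**Figure D3:**
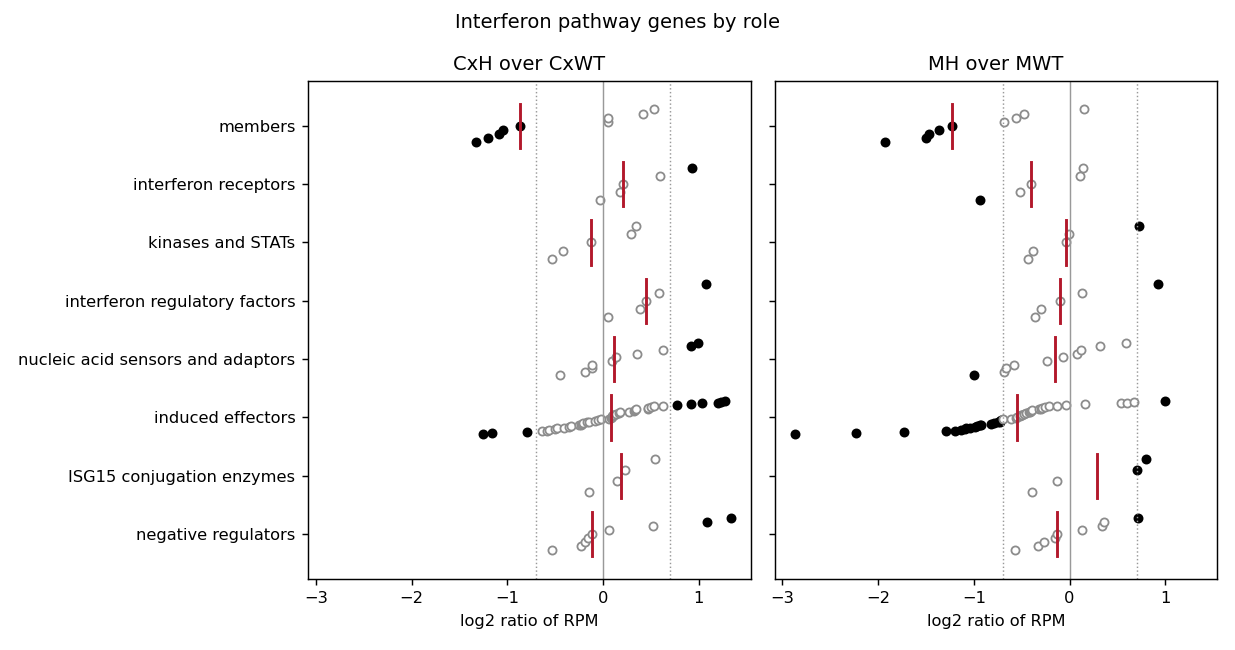
Log2 ratio of RPM (horizontal axis) of the 9 members and of the interferon pathway genes by role, in Cx and in M; each point is a gene, filled where called, with the median of each role as a red line and dotted lines at 0.7 on either side of 0. The induced effectors centre near 0 in Cx, with a median of 0.09, and below 0 in M, with a median of -0.55.

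Markers of other cells moved with some of these genes. The summed level of 10 markers of activated microglia was 273, 137, 130 and 294 RPM, with Ctss the most abundant. It was highest in CxH and MWT, the libraries in which Bst2 was highest, whereas Isg15 stood above the others in MWT alone. In Cx 7 of the 10 were called as higher in CxH, and in M 7 as lower in MH, where 9.46% and 12.7% of all genes were so called. Sums of homeostatic microglia, endothelial, astrocyte, and neutrophil and monocyte markers were also highest in CxH and MWT. The sum of the 9 interferon-response genes was 45.5, 57.9, 45.0 and 73.9 RPM. Stat2, the most abundant and most even, made up 16.9, 16.3, 18.4 and 16.5 RPM of it, and Irf9 10.4, 10.02, 9.45 and 13.96 RPM. Ifit1, Ifit3, Oasl2, Usp18 and Irf7 were higher in CxWT and MWT than in CxH and MH, unlike these marker sums. For 8 homeostatic microglia markers the sum ranged from 298 (CxWT) to 440 RPM (CxH), and for 8 endothelial markers from 151 (CxWT) to 211 RPM (CxH), led by Flt1. Of the 7 markers of T and natural killer cells 0 were in the table. The sum of 4 neutrophil and monocyte markers lay between 23.4 (MH) and 36.4 RPM (MWT), led by Ly6c2. The most abundant of the other lists were Ttr, Slc1a2, Igf2 and Hba-a1. That of 6 choroid plexus and ependyma markers between 146 (CxWT) and 629 (MH), that of 6 astrocyte markers between 1968 (CxWT) and 2939 (CxH), that of 5 fibroblast markers between 111 (CxWT) and 120.0 (CxH) and that of 2 red cell markers between 77.1 (MWT) and 254 (CxWT). No marker of these lists was at 0 reads in any library. The part that these cells, or the area markers given above, have in the levels of the 9 genes was not tested.

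**Figure D4:**
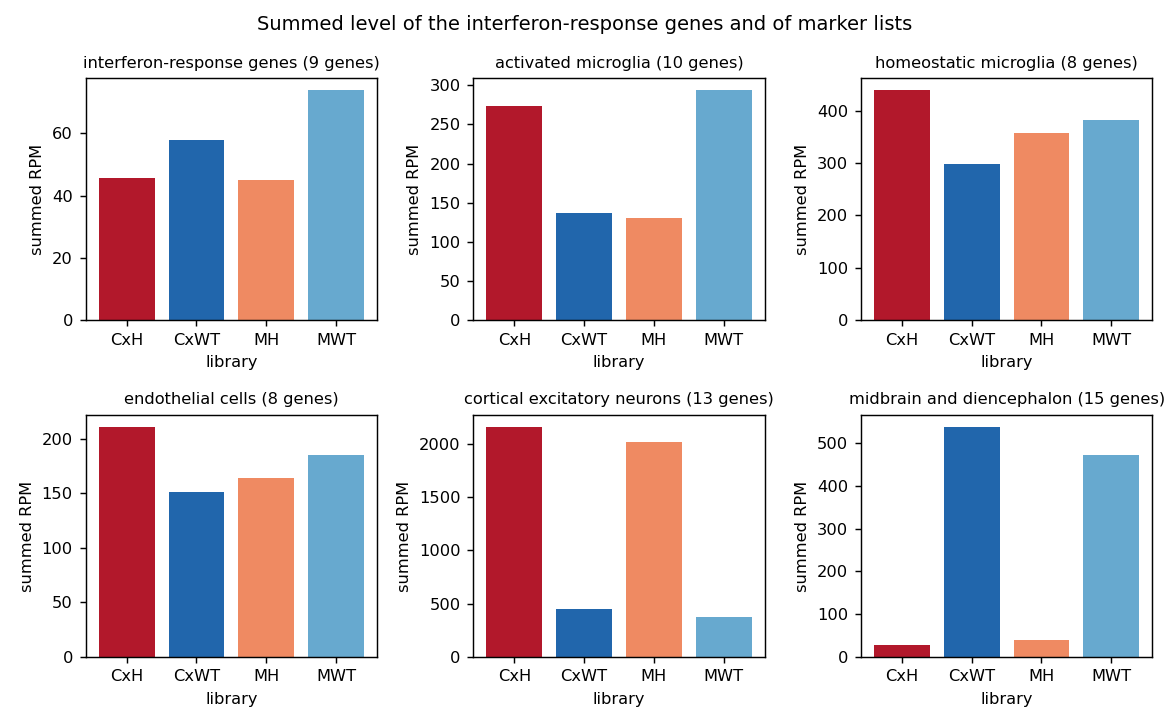
Summed RPM (vertical axis, from 0) of the 9 interferon-response genes and of 5 marker lists in the 4 libraries, 1 bar per library, with no replicates and so no error bars. Activated microglia markers are highest in CxH and MWT, cortical markers in CxH and MH, and midbrain and diencephalon markers in CxWT and MWT.

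Log2 ratios were higher for genes of higher GC content, with Spearman correlations of 0.461 in Cx, 0.487 in M, 0.582 in CxH over MH, 0.629 in CxWT over MWT, 0.686 in CxH over MWT and 0.163 in MH over CxWT. They are over 10707 genes, which are not independent replicates. The longest coding transcripts of the 9 genes have GC contents from 43.3% (Ifit1) to 55.8% (Bst2), around the median of 50.7% over all genes. After correction for GC content and length, the ratio of Ifit1 was -0.79 for Cx and -1.05 for M, and it was -1.04 in CxH vs. MWT against -1.63 before, all of them still called. That of Irf7, whose GC content is 55.3%, moved to -1.23 in Cx.

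Profiles over the 4 libraries were also compared with those of other genes. A profile is the log2 RPM of each library minus the mean of the 4, and the median profile of the members was -0.42, 0.36, -0.51 and 0.65. Among 12310 other genes with at least 200 reads in sum, the nearest to it were Cmtr2, Slc4a4, Tmlhe, Zfp275 and Magt1, with root mean square differences of 0.033, 0.035, 0.045, 0.047 and 0.047 log2 units. The members themselves lay at 0.16 (Usp18), 0.20 (Ifit1), 0.26 (Irf7), 0.28 (Oasl2) and 0.30 (Ifit3) from their median, and at 0.37 to 0.55 for Irf9, Isg15, Bst2 and Stat2. These distances are not comparable with those of the 5 genes, which were picked as nearest among many and are set against a median, while single members carry the counting error of few reads. A likeness over 4 libraries is a description only.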

How the data were processed

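Libraries were made with the SOLiD Whole Transcriptome kit from pooled mRNA and sequenced on a SOLiD 3 Plus instrument. The authors filtered reads on quality, aligned them to NCBI37/mm9 with PASS 2.10 (best hit, at most 2 mismatches, no gap) and deposited raw counts of reads aligned to a single gene, keeping genes with more than 50% of their length covered. The annotation used for counting is not given in the sources used here. Single-gene counting lowers the count of genes with near-identical copies.

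Symbols were matched by Entrez identifier to RefSeq for 12690 of 12700 genes, and positions, GC content and transcript length come from GENCODE vM1 on the same build (96.3% of genes with GC content and length). RPM are counts divided by the aligned reads that the study lists for each library, and a count of 0 was set to 1 in ratios only. The likelihood ratio test was run on every gene and with thresholds as in the study, without adjustment. Members and lists were chosen with earlier results of these data known. Named were all members, Ids, 5 signalling genes (1 of them is not reported here), and in each comparison of the study the 3 highest and 3 lowest called pathway genes that had 50 reads or more in 1 of the libraries. Other pathway genes are named where a role had few calls, and these were chosen after their values were seen. A fit over the 4 libraries with the labelled area as a block was added after seeing the data. Alternatives were other scalings (column totals, TMM, DESeq2 size factors), a filter of 100 reads, a log2 threshold of 1, an edgeR exact test with an assumed coefficient of variation of 0.2 and a regression of log2 ratios on GC content and length. The steps were tested on simulated data with 200 changed genes. The software was DESeq2 1.42.0 and edgeR 4.0.16 in R 4.3.3, and Python 3.11.15 with pandas 2.3.3, numpy 2.4.6, matplotlib 3.10.9 and scipy 1.17.1.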

Additional observations from a re-analysis of the deposited data

Results flagged for a closer look

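Bst2 was singled out because its ratio had opposite signs in the pairs labelled Cx and M, each beyond counting error. Its log2 ratio of CxH over CxWT minus that of MH over MWT was 1.90 ± 0.35, where the error covers counting only. After correction for GC content and length its ratio of CxH over CxWT was 0.28, against 0.53 ± 0.24 before, so that the sign in Cx was then within counting error of 0. With 1 library per condition the difference was not tested. The Ids reads and area markers of these libraries do not follow the labels, so it cannot be read as a difference between areas. By library, Bst2 was at 2.49 RPM in CxH and 3.18 in MWT, which have few Ids reads, and at 1.73 in CxWT and 1.23 in MH, which have many. The other 8 members did not have opposite signs beyond counting error in both pairs.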

How the results depend on the processing

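Over the 6 pairs of libraries the 9 genes gave 54 log2 ratios, of which 23 were called. Of these, 15 were called under every alternative that gave a value, 3 were lost only at a log2 threshold of 1, and 5 were lost at that threshold and under at least 1 other setting. The filter of 100 reads in either library removed Usp18, Bst2 and Isg15, so the number of members called went to 3 in MH vs. MWT, 0 between the H libraries and 0 between the WT libraries. At a log2 threshold of 1 it was 0 in CxWT vs. MWT and 1 in MH vs. CxWT. With the exact test and an assumed coefficient of variation of 0.2 it was 0 and 3 in these pairs, and with the correction for GC content and length it was 1 in CxWT vs. MWT. For the 80 pathway genes, a log2 threshold of 1 left 9 of 15 calls in CxH vs. CxWT, 9 of 27 in MH vs. MWT, 6 of 12 in CxH vs. MH, 4 of 13 in CxWT vs. MWT, 9 of 19 in CxH vs. MWT and 1 of 4 in MH vs. CxWT. The exact test left 16 in MH vs. MWT and 8 in CxWT vs. MWT, column totals gave 21 in CxWT vs. MWT, and the GC and length correction 10 in CxH vs. MWT. Signs turned for 5 ratios, none of them called: to 0.012 for Ifit1 in CxH vs. MH, to -0.011 for Irf9 and -0.022 for Stat2 in CxH vs. CxWT and to -0.12 for Stat2 in CxH vs. MWT with the GC and length correction, to -0.079 for Stat2 in CxH vs. MWT with column totals, and to 0.022 with TMM and 0.023 with DESeq2 factors for Irf9 in MH vs. CxWT. Column totals added a call of Isg15 in MH vs. MWT, at -0.75, whereas the GC and length correction brought this ratio to -0.39. Scaling also moved the balance over all genes, and column totals shifted the median of all genes by -0.11 in CxH vs. MWT. Genes higher in the library named before the other were 45.2% of the calls in CxH vs. CxWT and 56.0% with TMM factors, 49.1% in MH vs. MWT with 42.1% for column totals and 56.1% for TMM factors, 72.0% in CxWT vs. MWT and 55.2% with column totals, 69.6% in CxH vs. MH and 58.4% with column totals, 50.8% in CxH vs. MWT and 39.1% with column totals, and 41.9% in MH vs. CxWT and 54.2% with TMM factors. The fit with the labelled area as a block, chosen after seeing the data, called 4 of the 9 members, against 5 in CxH vs. CxWT and 5 in MH vs. MWT.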
